A study of Homo sapiens with 6 samples.

Results

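RASA3 lies near the end of the long arm of human chromosome 13, in band 13q34. The DEK peaks in this gene and on both sides of it, up to the chromosome end, are described here. The members are the peaks of both deposited DEK lists that overlapped the last 1169879 bp of chromosome 13 on hg19, which was 17 of 15017 peaks of replicate 1 and 168 of 152779 peaks of replicate 2. Intersecting both lists, with 1 bp of overlap as the minimum, left 15 shared intervals in this window of 4453 in all, and 9 of the 15 lay in RASA3. The window was chosen because its shared intervals stood out in the same lists, so their number, place and density are given as a description and were not tested.

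The study precipitated chromatin of untreated U937 cells, an established human monocytic line that grows in suspension, with an antibody against DEK (2 samples) or against H3K4me3 (2 samples), and kept 2 samples of chromatin that was not precipitated. The precipitated DNA was sequenced, and a peak is a stretch where the sequenced fragments, called tags, piled up above the local background. Each DEK peak has a number of tags, a score that is 10 times the negative log10 of its p-value, and a fold enrichment over the background around it, and the values given for a shared interval are those of the whole peaks behind it. The H3K4me3 lists give positions only, 47523 peaks in replicate 1 and 29335 in replicate 2, and the samples that were not precipitated were not analysed here.

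RASA3 encodes a GTPase-activating protein of the GAP1 family, which is held at the inner face of the plasma membrane by inositol phosphates and phosphoinositides and turns off RAS and RAP1 by speeding the hydrolysis of their bound GTP. In blood cells it is best known for restraining RAP1, and through it integrin activation, in platelets. DEK is an abundant nuclear protein that binds chromatin and changes the supercoiling of DNA, and H3K4me3 is a histone mark of active promoters.

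RASA3 (ENSG00000185989.11_9) is transcribed from the minus strand, from its start at 114898098 to 114747194, over 150.9 kb with 24 exons and 23 introns. The sequences below are those that the results turn on, read on the minus strand of GRCh37, whose chromosome 13 is as long as that of hg19. Capitals mark the motifs that were searched, AGGAAG (the core of PU.1 sites), TGTGGT (the core of RUNX sites), CACGTG (an E-box) and CCCCACCC, each on both strands, and no such motif overlapped another in the lines shown. The first line is the 250 bases upstream of the RASA3 start (chr13:114898099-114898348), shown because it lies between shared intervals but held no DEK peak of either list. It had a GC content of 81.2% and 1 motif, AGGAAG as its reverse complement.
RASA3 upstream: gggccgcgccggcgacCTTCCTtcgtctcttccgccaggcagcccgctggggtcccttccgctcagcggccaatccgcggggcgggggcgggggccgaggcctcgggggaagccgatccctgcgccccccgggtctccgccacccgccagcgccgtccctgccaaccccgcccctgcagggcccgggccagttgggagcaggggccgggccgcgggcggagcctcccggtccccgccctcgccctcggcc
The next lines are the middle base and the 100 bases on each side of it for the shared interval 1.9 kb upstream of the start (chr13:114899923-114900123) and for the interval in intron 1 nearest to the start (chr13:114896415-114896615). The intron 1 stretch held TGTGGT and the reverse complement of CCCCACCC.
Upstream interval: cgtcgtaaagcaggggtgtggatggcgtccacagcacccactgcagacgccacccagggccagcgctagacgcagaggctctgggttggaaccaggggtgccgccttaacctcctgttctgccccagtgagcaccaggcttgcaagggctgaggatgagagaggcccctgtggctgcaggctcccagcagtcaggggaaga
Intron 1 interval: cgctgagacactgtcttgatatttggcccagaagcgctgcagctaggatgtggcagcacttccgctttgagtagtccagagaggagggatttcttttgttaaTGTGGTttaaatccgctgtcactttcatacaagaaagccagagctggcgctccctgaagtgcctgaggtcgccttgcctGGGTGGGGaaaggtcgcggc
The last 4 lines come from intron 2. They are the middle of the interval with most tags in both lists (chr13:114830827-114831027), the middle of one that 1 replicate 1 peak shared with a neighbour (chr13:114828241-114828441), that neighbour in full (chr13:114828915-114828996), and the middle of an interval built of a tandem repeat (chr13:114832621-114832821), whose capitals mark instead 4 copies of CAGGTGGGGG spaced 35 bases apart.
Intron 2 most tags: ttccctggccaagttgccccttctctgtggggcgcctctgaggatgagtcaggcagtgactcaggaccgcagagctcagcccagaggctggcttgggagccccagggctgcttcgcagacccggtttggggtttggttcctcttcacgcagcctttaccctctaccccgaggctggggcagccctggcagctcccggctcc
Intron 2 first neighbour: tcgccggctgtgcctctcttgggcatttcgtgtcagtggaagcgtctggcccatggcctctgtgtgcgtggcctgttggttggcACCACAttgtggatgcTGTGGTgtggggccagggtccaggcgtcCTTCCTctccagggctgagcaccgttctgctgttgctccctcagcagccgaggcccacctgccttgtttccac
Intron 2 second neighbour: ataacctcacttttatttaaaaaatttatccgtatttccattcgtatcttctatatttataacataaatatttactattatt
Intron 2 tandem repeat: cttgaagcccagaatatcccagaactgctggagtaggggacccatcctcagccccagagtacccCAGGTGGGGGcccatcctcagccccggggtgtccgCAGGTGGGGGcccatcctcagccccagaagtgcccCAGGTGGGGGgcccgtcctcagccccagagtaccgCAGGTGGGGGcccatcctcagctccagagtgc
The GC content over the whole of these intron 2 intervals ran from 18.3% in the second neighbour to 65.4% in the tandem repeat.

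The DEK intervals at RASA3 fell into 2 groups, one at the start of the gene and one deep in introns 2 and 3. In replicate 1, 8 peaks overlapped the gene body, and 7 of these 8 overlapped a replicate 2 peak, beside 27.4% of all replicate 1 peaks. In replicate 2, 46 peaks overlapped the gene body and 8 of the 46 overlapped a replicate 1 peak, beside 2.90% of its whole list. With the 2 kb upstream of the start included, RASA3 had 9 peaks in replicate 1, 47 in replicate 2 and 10 shared intervals.

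**Figure D1:**
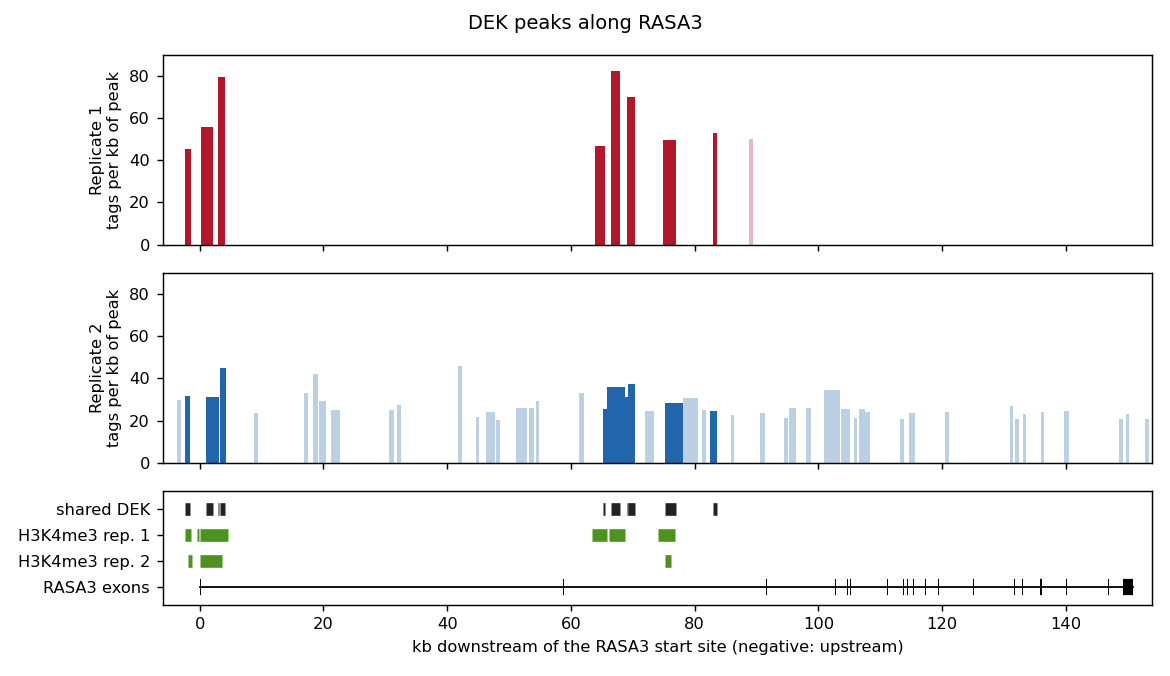
DEK peaks along RASA3 by distance from its start in kb, with the height of each bar as tags per kb of peak width in replicate 1 (red) and replicate 2 (blue); dark bars overlap a peak of the other list, and the lower tracks give shared intervals, H3K4me3 peaks of both replicates and exons. Dark bars, drawn as whole peaks, stand at the start and over the shared intervals from 65.2 to 83.6 kb downstream. Pale replicate 2 bars run along the whole gene.

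The group at the start spanned 6.45 kb, from 114893990 to 114900443, and held 4 shared intervals from 3 peaks of each list. The interval at 114899603 to 114900443, centred 1925 bp upstream of the start, had 40 tags in replicate 1 and 27 in replicate 2, with scores of 76.1 and 109. Both precipitations placed it almost alike, since the summits lay 41 bp apart. Within intron 1, the interval at 114895956 to 114897075, centred 1583 bp downstream, had 107 and 63 tags. Farther in, the interval at 114893990 to 114894754, centred 3726 bp downstream, had 89 and 42 tags, a score of 58.7 in replicate 1 and 248 in replicate 2, and summits 32 bp apart. A sliver of 54 bp at 114895060 to 114895113 joined the edges of neighbouring peaks, whose summits lay 2149 bp apart, and thus marks no summit common to both lists. The start site itself was covered by no DEK peak of either list.

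The group inside the gene spanned 18.4 kb, from 114814494 to 114832875, and held 6 shared intervals from 5 replicate 1 peaks and 6 replicate 2 peaks, 65.2 to 83.6 kb downstream of the start. Over the group the peaks summed to 425 tags in replicate 1 and 284 in replicate 2, against 236 and 132 for the group at the start. The interval at 114830228 to 114831627 in intron 2 had 115 and 104 tags and scores of 179 and 238, and its summits lay 41 bp apart. The lower of its tag counts was at the 95.2 percentile of all shared intervals, the highest in the window. Its replicate 2 peak, 2901 bp wide, had the most tags of that list in the window but a fold enrichment of only 2.95, against 7.58 in replicate 1.

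At 114821057 to 114822946 in intron 2, the widest shared interval of the window (1890 bp) had 107 and 82 tags. It came from the widest peak of each list there, 2151 bp in replicate 1 and 2916 bp in replicate 2, and the summits were 1299 bp apart, so the lists shared the region and not the summit. One replicate 1 peak with 87 tags, at 114827754 to 114828996, covered both neighbours printed above. The first neighbour had 42 tags in replicate 2, a score of 180 and summits 193 bp apart, whereas the second, 82 bp of sequence rich in A and T, had 13 tags and a score of 50.6, near the lowest score listed. The tandem repeat interval, 114832567 to 114832875, was 18.1% of a replicate 1 peak of 80 tags and 1711 bp, whose summit lay outside it, and it met a replicate 2 peak of 15 tags. In the interval 62.5% of the bases lay in repeated runs of 12 bases, while 94.3% of its runs of 31 bases occurred once in the genome. The remaining interval, 114814494 to 114815174 in intron 3, had 36 and 28 tags with scores of 50.1 and 56.2, the former being the lowest replicate 1 score of the window. When both scores had to reach 100, 2 of the 9 intervals of the gene were left, the first neighbour and the interval with the most tags.

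Replicate 1 left long stretches of RASA3 without a peak, and replicate 2 did not. Between the groups, 59.7 kb held no replicate 1 peak but 15 replicate 2 peaks of at most 49 tags. From the 3′ end of the gene to the first replicate 1 peak, 61.5 kb held 19 replicate 2 peaks. That first peak, of 30 tags at 114808718 to 114809315 in intron 3, was the 1 replicate 1 peak of the gene that overlapped no replicate 2 peak. Among the 19 replicate 2 peaks was the peak with the highest score of the window in replicate 2, at 114794569 to 114797112 across intron 5, exon 5 and intron 4, with its summit in intron 5, 88 tags, a score of 609 and a 10.7-fold enrichment. It was singled out after its values were seen, and no replicate 1 peak overlapped it. In this peak 65.8% of the bases lay in repeated runs of 12 bases, and 78.8% of its runs of 31 bases occurred once in the genome.

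The replicate 2 peaks covered 31.5% of RASA3, with a median gap of 854 bp between neighbours and a largest gap of 9748 bp. By their middles, 16 lay in intron 1, 8 in intron 2, 4 in intron 3 and 4 in intron 4, which is 2.73, 3.71, 3.65 and 3.60 peaks per 10 kb. The first 4 introns thus had similar densities in replicate 2, while shared middles numbered 3 in intron 1, 5 in intron 2, 1 in intron 3 and 0 in intron 4. Introns 5 to 23 held 12 replicate 2 middles together and no replicate 1 peak. The replicate 2 peaks that were shared had a median of 42 tags (n = 8) and those that were not a median of 21 (n = 38), and 3 of the 38 had more than 42. A peak of at least 50 tags was seen 5 times among the 46, or 10.9%, beside 8.70% of the whole list. Sequence that occurs many times in the genome lay under some peaks of replicate 2 alone: in intron 1, none of the 31-base runs of the peak at 114850352 to 114851753, which had 34 tags, occurred once, and its part in the result was not tested.

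Exons make up 2.79% of the gene. No replicate 1 peak and no shared interval touched one, and 10 of the 46 replicate 2 peaks did. The intronic transcript RASA3-IT1, in intron 1, had no peak in either list.

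H3K4me3, which the choice of the window did not use, lay under 6 of the 15 shared intervals in both of its lists, or 40% (95% Wilson interval 19.8% to 64.3%), beside 33.7% of all shared intervals. In the rest of chromosome 13 the share was 22% (16.3% to 29.1%). These Wilson intervals cover counting error only and treat the shared intervals as independent, and that of the window spans both other shares. The 15 shared intervals of the window were cut from 12 replicate 1 and 14 replicate 2 peaks, so its Wilson interval may be too narrow. Against H3K4me3 replicate 1 alone the share was 73.3% (48.0% to 89.1%) in the window, beside 49.9% of all shared intervals and 27.7% in the rest of chromosome 13. Of the 15 intervals, 5 were thus marked in H3K4me3 replicate 1 and not in replicate 2. No interval of the window was marked in replicate 2 alone.

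The groups of RASA3 differed in this mark. All 4 intervals at the start overlapped H3K4me3 in both lists. Its replicate 1 had a peak from 33 to 4579 bp downstream of the start, another from 43 to 479 bp upstream, and one more from 1347 to 2370 bp upstream, and replicate 2 had peaks from 12 to 3668 bp downstream and from 1233 to 1934 bp upstream. Of the 6 intervals inside the gene, 1 overlapped both lists (114821057 to 114822946), 2 overlapped replicate 1 alone, among them the interval with the most tags, and 3 overlapped neither. These 3 were the neighbours cut from 1 replicate 1 peak and the intron 3 interval with the lowest replicate 1 score of the window. DEK and H3K4me3 thus lay together at the start, and DEK was also found without the mark in introns 2 and 3. Of the 24 H3K4me3 peaks of replicate 1 in the window, 11 had a replicate 1 DEK peak, and so did 4 of the 14 of replicate 2.

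The mark was also set beside each DEK list alone. In the window, 12 of 17 replicate 1 DEK peaks overlapped H3K4me3 replicate 1, or 70.6%, beside 50.2% of the whole list and 24.1% in the rest of chromosome 13. For replicate 2 the share was 10.7% in the window and 10.7% in its whole list, and against both H3K4me3 lists it was 5.95%, beside 7.74%. Among the 5 replicate 1 peaks of the window that were not shared, 2 overlapped H3K4me3 replicate 1, beside 50.3% of all such peaks.

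Outside RASA3 the window held 9 replicate 1 peaks, 122 replicate 2 peaks and 6 shared intervals, 1 of them the interval just upstream of RASA3. The pair with the highest value of the lower tag count lay between genes, at 114443709 to 114444473 and 114444790 to 114445714, and was cut from 1 replicate 1 peak of 97 tags by replicate 2 peaks of 78 and 44 tags. The part with the lower coordinates had 40.7% of its bases in repeated 12-base runs. Both overlapped H3K4me3 in replicate 1 and not in replicate 2. In ADPRHL1, which encodes a protein related to ADP-ribosyl hydrolases, the interval at 114063654 to 114064891 had 67 and 41 tags and summits 64 bp apart, and part of its sequence occurred up to 28005 times in the genome.

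GAS6 encodes a secreted ligand of the TAM receptor kinases. It held the replicate 1 peak with the most tags and the highest score of the window, at 114544000 to 114545723, with 142 tags and a score of 416. In that peak 46.3% of the bases lay in repeated 12-base runs, and 78.2% of its 31-base runs occurred once in the genome. Replicate 2 met it with a peak of 32 tags that overlapped its first 245 bp, and the summits lay 1403 bp apart, so the tallest peak of replicate 1 had no counterpart at its summit. The remaining interval, at 114461391 to 114461977, was centred 515 bp upstream of the start of TMEM255B, with 33 and 14 tags and H3K4me3 in both lists. It falls outside the rule for named intervals and is given to account for all 15.

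**Figure D2:**
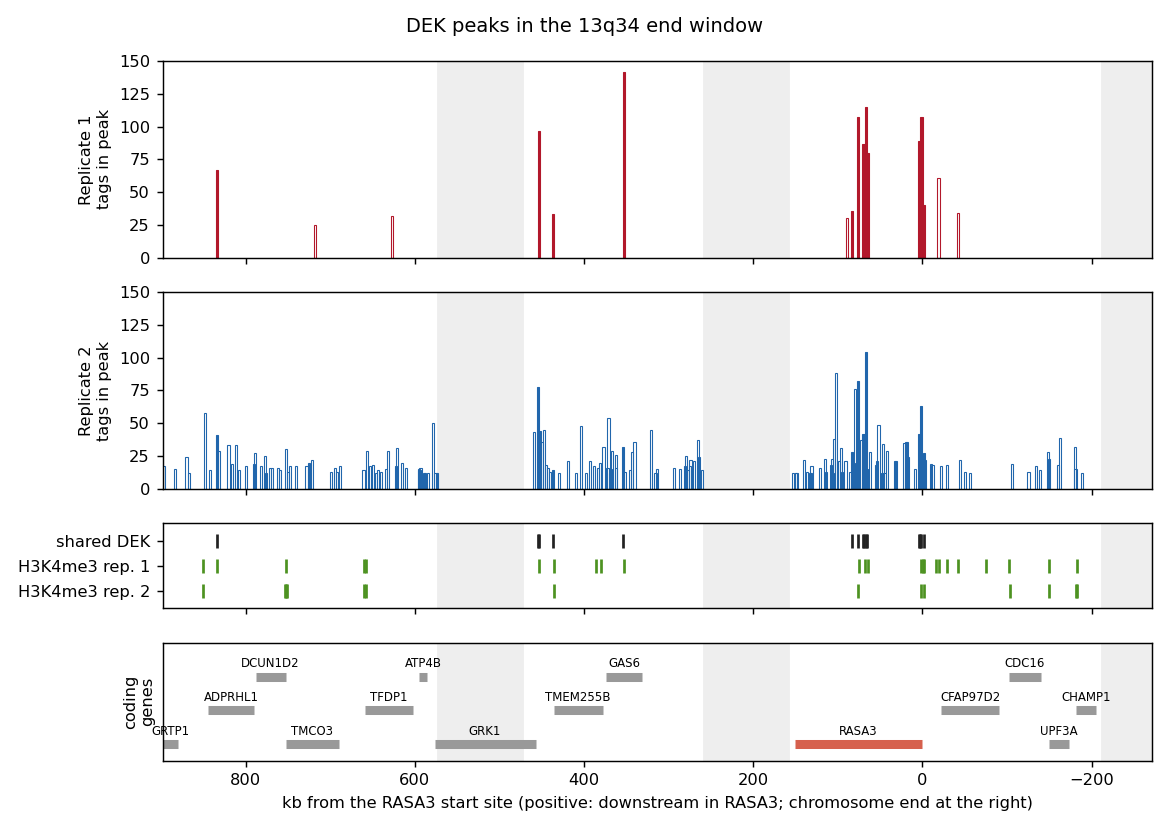
DEK peaks of the window by distance from the RASA3 start in kb, with tags per peak as bar heights for replicate 1 (red) and replicate 2 (blue), filled where shared; grey areas are unknown bases, and the lower panels give shared intervals, H3K4me3 peaks and protein-coding genes. The tallest replicate 1 bar is the 142-tag peak in GAS6, and 9 of the 15 shared intervals stand in RASA3.

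The other 13 protein-coding genes of the window had at most 1 replicate 1 peak each in the gene body. ADPRHL1, TMCO3, TFDP1 (a partner of E2F factors), TMEM255B, GAS6 and CFAP97D2 had 1 each, and GRTP1, DCUN1D2, ATP4B, GRK1, CDC16, UPF3A and CHAMP1 had none. Shared intervals in the gene body were found in ADPRHL1 and GAS6, 1 each. In replicate 2 all of them had peaks, from 1 in CHAMP1 to 12 in TMCO3, TFDP1 and GAS6. Per 10 kb, replicate 2 had 3.05 peaks in RASA3, 2.76 in GAS6, 2.11 in TFDP1 and 4.26 in the short gene ATP4B, so RASA3 was not the densest gene of the window in that list. GRK1 holds 100 kb of unknown bases, in which no peak can be mapped. H3K4me3 covered the start in both lists in DCUN1D2, TMCO3, TMEM255B, UPF3A and CHAMP1, and in replicate 1 alone in CDC16, a subunit of the anaphase-promoting complex. TMEM255B was the 1 gene of the window with a shared DEK interval within 1 kb of its start.

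RASA3 covers 16.6% of the known bases of the window and held 47.1% of its replicate 1 peaks, 27.4% of its replicate 2 peaks and 60% of its shared intervals. By tags, RASA3 held 651 of 1182 in the window for replicate 1 (55.1%) and 1343 of 3958 for replicate 2 (33.9%). The density in RASA3 was 53.0 peaks per Mb in replicate 1, 305 in replicate 2 and 59.6 shared intervals, against 11.9, 161 and 7.91 in the rest of the window. The ratio of these densities was 4.47 in replicate 1 and 1.9 in replicate 2. RASA3 stood above the rest of the window mainly in replicate 1 and in what both lists shared. The replicate 1 densities rest on 8 peaks in RASA3 and 9 outside it, and the shared ones on 9 and 6 intervals. Since RASA3 and the window were chosen with these intervals known, this is a description.

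The window has 0.910 Mb of known bases, since 260000 of its bases are unknown in hg19, and its GC content is 51.3% against 38.4% in the rest of chromosome 13. It had 18.7 peaks per Mb in replicate 1 against 7.82 in the rest of the chromosome, 185 against 30.7 in replicate 2, and 16.5 against 1.68 shared intervals. The ratios were 2.39, 6.01 and 9.82. Against the rest of the genome they were 3.58, 3.47 and 10.7, so the shared density stood out by a similar factor against either comparison. For scale, the nearest replicate 1 peak outside the window, 82.4 kb before its limit, had 59 tags, and the first one inside, 63.6 kb past it, had 67. In replicate 2 the neighbours of the limit had 22 tags outside and 17 inside, 7.37 and 1.27 kb away.

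The rest of chromosome 13 was far from even, as the plot of counts along the chromosome shows. A stretch 22 to 42 Mb from the long-arm end (73169879 to 93169878), chosen after the counts were seen, held 560 of the 740 replicate 1 peaks outside the window, or 75.7%, and 112 of the 159 shared intervals, or 70.4%, but 33.3% of the replicate 2 peaks. Its density was 28.2 per Mb in replicate 1, higher than that of the window, 48.8 in replicate 2 and 5.64 for shared intervals. The window's ratio over this stretch was 0.66 in replicate 1, 3.78 in replicate 2 and 2.92 for shared intervals. Over the rest of the chromosome without it, the ratios were 7.77, 7.11 and 26.2. The comparison with the rest of chromosome 13 thus averages a dense stretch and a sparse remainder, and the cause of this unevenness was not tested.

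**Figure D3:**
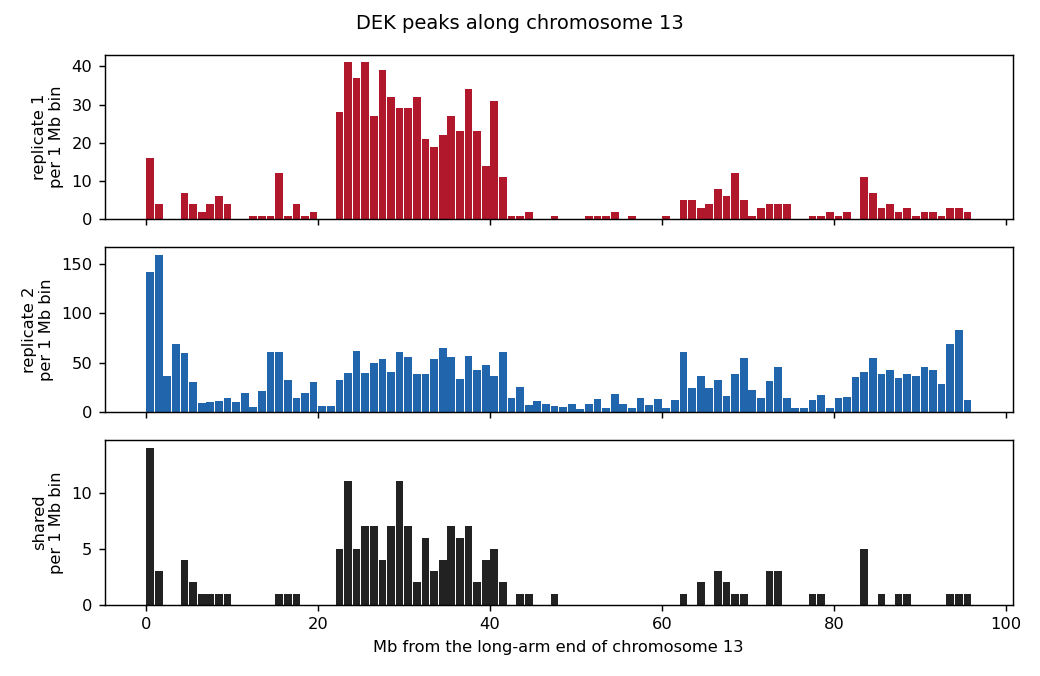
Number of DEK peaks in 1 Mb bins of chromosome 13 by distance in Mb from the long-arm end, for replicate 1 (red), replicate 2 (blue) and shared intervals (black). The bin at the end holds 14 shared intervals, the highest of the 96 bins, and replicate 1 has a block of high bins from 22 to 42 Mb.

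In 96 bins of 1 Mb, counted from the long-arm end and each with most of its bases known, the last bin had 16 replicate 1 peaks (rank 19, median 2.5), 142 replicate 2 peaks (rank 2, median 30) and 14 shared intervals (rank 1, median 1). The bin next to it had 4, 159 and 3. Replicate 2 thus had its 2 highest bins at the end, while shared intervals were many in the last bin and few in the next. The last bin also had the highest GC content of the 96, 51.4%, and 10 starts of protein-coding genes against a median of 2. The bins share libraries and depth. Across them, Spearman's rho with GC content was 0.05 for replicate 1 counts, 0.45 for replicate 2 counts and -0.05 for shared counts. The stretch 22 to 42 Mb from the end, with 112 of the 159 shared intervals outside the window, has a GC content of 36.1%. Whether GC content has a part in these counts was not tested.

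The ends of the long arms of the other chromosomes were taken at the same length. Chromosome 13 ranked 1 of 23 in shared intervals per Mb, with 16.5 against a median of 3.60, followed by chromosome 3 with 9.91. In replicate 1 it ranked 3 of 23, behind chromosomes 15 (21.6 per Mb) and 3 (18.9), and in replicate 2 it ranked 9, with 185 against a median of 155. By the ratio of the end to the rest of the chromosome it ranked 3 in replicate 1, 1 in replicate 2 and 1 for shared intervals. A density above that of the rest of the chromosome was seen at 13 of the 23 ends in replicate 1, 21 in replicate 2 and 19 for shared intervals. The median ratio over the 23 ends was 1.04 in replicate 1, 2.72 in replicate 2 and 2.23 for shared intervals. A higher density of shared intervals at the end was thus common among chromosomes.

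**Figure D4:**
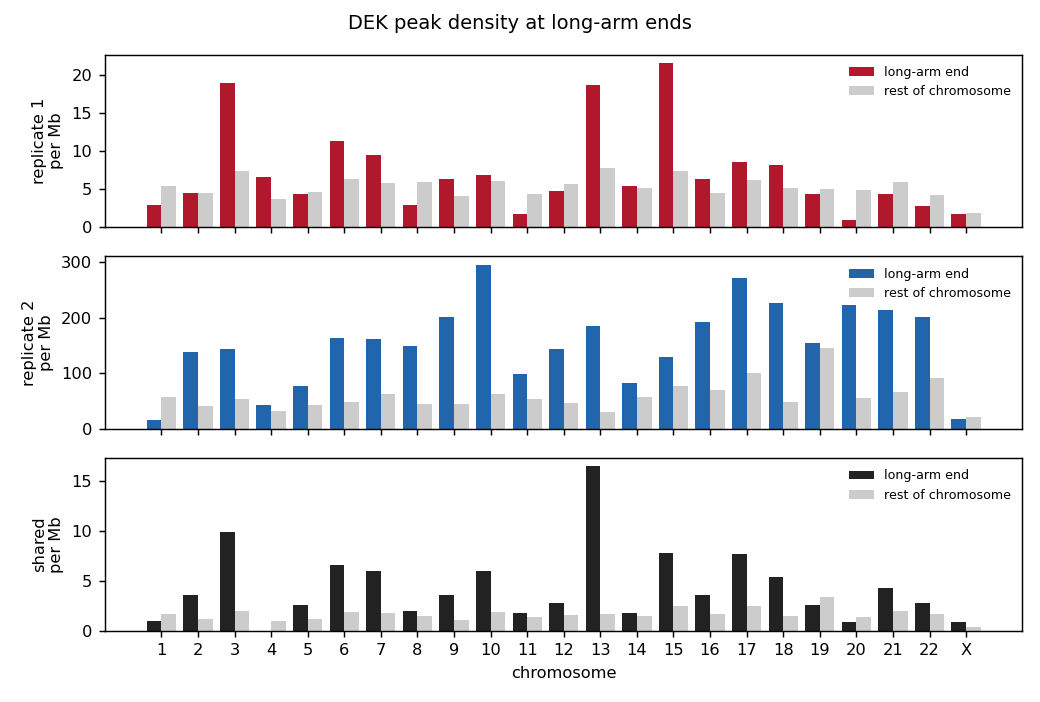
DEK peaks per Mb of known bases at the long-arm end of chromosomes 1 to 22 and X (coloured), taken at the length of the chromosome 13 window, and in the rest of each chromosome (grey), for replicate 1, replicate 2 and shared intervals. Chromosome 13 has the highest bar of the shared panel, 16.5 per Mb, and chromosome 10 that of replicate 2, 296 per Mb.

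Counted over genes, 12.1% of 20163 protein-coding genes had a shared interval in the body or the 2 kb upstream, and 26.5% of the 3666 genes of at least 100 kb had one. RASA3 had 9 in its body, where the median over these long genes was 0. CSMD1 had more (11) and CDH23 as many, 2 genes named after their values were seen. Per length, RASA3 ranked 1 of the 3666 in shared intervals, 9 in replicate 1 peaks and 24 in replicate 2 peaks. Over all 20163 genes, among which a short gene with 1 peak has a high density, these ranks were 368, 839 and 2430. On chromosome 13 it had the most shared intervals and the most replicate 2 peaks of 322 genes and ranked 6 in replicate 1, where the highest count was 33.

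By size, the peaks of the window were like the rest of the list in replicate 2 and had somewhat higher medians in replicate 1. Its replicate 1 peaks had a median of 67 tags (25 to 142) and a median width of 1243 bp, beside 53 tags and 1045 bp in the rest of chromosome 13 and 47 tags and 1016 bp in the whole list. Its replicate 2 peaks had a median of 18 tags (12 to 104) and 711 bp, beside 18 tags and 653 bp in the rest of the chromosome and 20 tags and 697 bp in the whole list. The median score was 70.4 against 68.8 for the whole list in replicate 1 and 78.8 against 78.3 in replicate 2. In RASA3 the medians were 88 tags and 21 tags. The false discovery rate listed for each replicate 1 peak was 100%, in the window and elsewhere. This includes each replicate 1 peak behind a shared interval, so the shared intervals rest on peaks without a low listed rate in that list. In replicate 2 the listed rate ran from 0.78% to 2.34% in the window.

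Of the 17 replicate 1 peaks of the window, 12 were shared, or 70.6% (46.9% to 86.7%). The share was 20.3% (17.5% to 23.3%) in the rest of chromosome 13 and 27.4% in the whole list. Since the window was chosen through its shared intervals, the share in the window is a description. In replicate 2, 8.33% (5.03% to 13.5%) of the window's peaks were shared, beside 5.46% in the rest of chromosome 13 and 2.90% in the whole list. This share too is a description, since sharing entered the choice of the window, and its Wilson interval is not read as a test. Replicate 2 peaks covered 16.3% of the known bases of the window, against 2.28% in the rest of the chromosome. The room for overlap was thus larger in the window, and its part in the result was not tested.

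**Figure D5:**
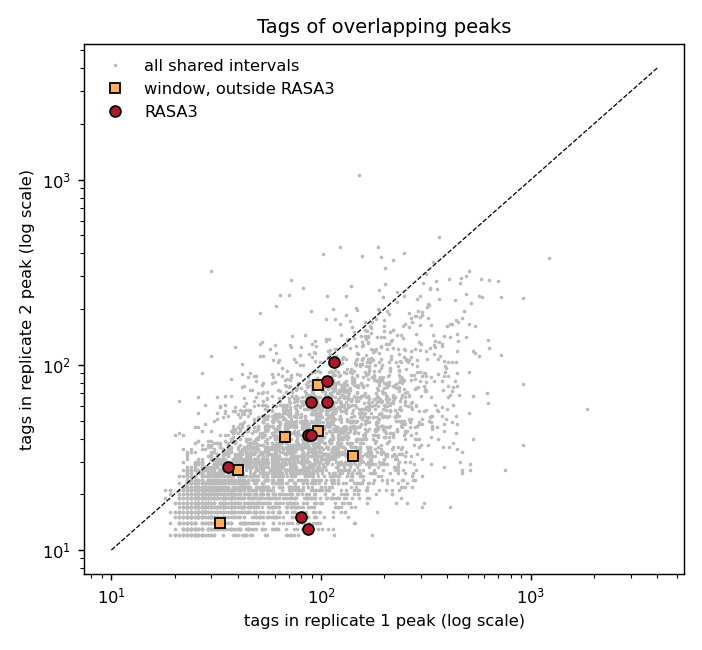
Tags in the replicate 1 peak and in the replicate 2 peak behind each shared interval, both on log scales, for all shared intervals (grey), those of the window outside RASA3 (orange) and those of RASA3 (red); the dashed line marks equal tags. The 15 intervals of the window lie below the line.

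All 15 shared intervals of the window had more tags in replicate 1, as did 91.6% of all shared intervals. The ratio of the tag counts had a median of 1.70 in the window (1.11 to 6.69), 1.81 in the rest of chromosome 13 and 1.95 over all. The interval with the most tags in intron 2 had a ratio near 1 and the second neighbour printed above the highest. The lists do not give the depth of each library, so these ratios compare lists and not amounts of DEK.

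By sequence, the shared intervals of the window had a median GC content of 56.9%, against 45.6% in the rest of chromosome 13 and 50.1% over all, while the window itself is richer in GC than the rest of the chromosome. Their 31-base runs occurred once in the genome at a median of 100% (73.6% to 100%), against 75.7% in the rest of chromosome 13 and 79.6% over all. Among the RASA3 intervals the lowest value was 91.3%. In windows that reach 150 bp to each side of the middle, AGGAAG was found in 6 of 15 (40%), 4 of them in RASA3, beside 28.0% of all 4435 windows of that length. TGTGGT was found in 5 of 15 (33.3%), 3 in RASA3, beside 22.1%. CACGTG and CCCCACCC were found once each, both in RASA3, beside 5.66% and 4.96%. Of 20140 promoters of protein-coding genes, taken from 250 bases before to 50 bases after the start, 32.7% held AGGAAG as that of RASA3 did, and 12.5% held TGTGGT, which that of RASA3 did not. These matches describe letters in the windows and not bound sites.

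RASA3 was set beside a list of 32 genes of RAS and RAP signalling, chosen by role. A shared interval in the gene or the 2 kb upstream was found in 8 of the 32, with RASA3 itself counted. The share was 12.1% over all protein-coding genes and 26.5% over those of at least 100 kb. The genes of the list differ in length, and most of the 8 are longer than 100 kb. Among 10 RAS GTPase-activating proteins, which turn RAS off, RASA1, RASA2, RASA3 and RASAL2 had shared intervals, with 1, 2, 10 and 1. Of 4 RAP GTPase-activating proteins, RAP1GAP2 had 3 and SIPA1 had 2. Of 8 exchange factors, which turn the GTPases on, RAPGEF1 had 1. RASA3 held more shared intervals than any other gene of the list, but it was chosen with these intervals known, so this is a description.

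The place of these intervals differed from gene to gene. In RASA1 the interval at 86563092 to 86564633 on chromosome 5 was centred 162 bp downstream of the start, with 98 and 61 tags and H3K4me3 in both lists. A shared interval within 1 kb of the start was found in 3.23% of all protein-coding genes. In RASA2, RASAL2, RAP1GAP2, SIPA1 and RAPGEF1 the intervals lay farther in, from 2452 bp downstream in SIPA1 to 191172 bp downstream in RASAL2. The pair in RASA2 had 40 and 13, and 38 and 41 tags, and the interval in RASAL2 24 and 23, all 3 without H3K4me3 in either list. The 3 in RAP1GAP2 and the 2 in SIPA1 overlapped both H3K4me3 lists. In SIPA1 replicate 1 had 1 peak of 165 tags over both intervals, and replicate 2 had 104 and 36 tags.

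Replicate 2 had peaks in 31 of the 32 genes, beside 83.8% of all protein-coding genes. Replicate 1 had peaks in 15, beside 25.7%. Per 10 kb, the replicate 2 density was 3.05 in RASA3, 0.56 in RASA1, 0.70 in RASA2 and 2.96 in RASA4. RASA3 thus stood above RASA1 and RASA2 but close to RASA4. Of the 32 genes, 4 were denser than RASA3, from 3.87 in RASAL3 to 6.24 in SIPA1.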

How the data were processed

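DEK and H3K4me3 ChIP-seq in U937 cells was analysed from deposited peak lists of 2 precipitations each. The authors aligned reads to hg19 with Bowtie2 and called peaks with MACS 1.4.1, separately for each precipitation, after base calling with Illumina OLB 1.9, per the labels and the study's methods. The peak settings of the H3K4me3 lists are not given in the sources used here. For each DEK peak the deposited lists give a count of tags that the authors did not normalize, a score (minus 10 times the log10 of the peak's p-value), a fold enrichment as a ratio over the local background, and the false discovery rate in percent. The lists hold no read totals and the study gives a minimum per sample only, so the exact depth is unknown, and the tags in peaks sum to 988363 in replicate 1 and 4172422 in replicate 2. The precipitations are called independent, but no separate cultures are stated, so differences between them may be technical, and with 2 of them no spread was estimated. The cell type could not be checked against expression in peak positions.

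Lists were intersected with an overlap of at least 1 bp. Genes come from GENCODE release 44 mapped to GRCh37, and sequences from GRCh37. Densities use known bases, and shares have 95% Wilson intervals. Intervals less than 10 kb apart form a group. The window, RASA3 and the RAS list were chosen with earlier results of these data known. Named were RASA3 with its shared intervals, the protein-coding genes of the window, the 5 other shared intervals with the highest lower tag count, the peaks with the most tags and the widest peaks, and members of the RAS list with a shared interval, of which some single results are not reported here. Python 3.11.15, NumPy 2.4.6, SciPy 1.17.1, pysam 0.24.0, Numba 0.67.0 and Matplotlib 3.10.9 were used. On simulated data 20 of 20 checks passed. Alternatives changed the overlap, the score minimum, the list length, the window, the comparison and the lists used.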

Additional observations from a re-analysis of the deposited data

How the results depend on the processing

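The counts depended on how a shared interval was defined. When an overlap had to reach 50% of both peaks, 8 intervals were left in the window and 5 in RASA3. With a score of at least 100 in both lists these were 3 and 2, with replicate 2 cut to the 15017 highest scores they were 6 and 4, and with either list alone they ranged from 17 to 168 and from 8 to 46. The density ratio of 9.82 between the window and the rest of chromosome 13 stayed above 1 in each alternative. All alternatives reused the lists through which the window was chosen, so a ratio above 1 is a description and no support. The ratio was 17.3 with the score minimum, 17.3 with lists of equal length, 5.31 with the window begun 1 Mb earlier, and 2.39 to 6.01 with single lists. The share of replicate 1 peaks shared, 70.6%, was 35.3% with lists of equal length. The share of intervals over both H3K4me3 lists, 40%, was 0% (0 of 3) with the score minimum, which leaves too few intervals for a share, and 40% to 73.3% with either H3K4me3 list alone. Fewer peaks entered under the score minimum and equal lengths, and the cause of the shifts was not tested. The other 14 of 30 alternatives left counts within 1.5 times, shares within the Wilson interval of the reported share, and the density ratio within 2.56 of 9.82. That margin is the SD of the ratios of the 2 single lists, 2.39 and 6.01. It served as a working limit and does not measure the spread of the shared ratio. Under the 50% overlap the share of replicate 1 peaks shared was 47.1% and that over H3K4me3 62.5%. Counting unknown bases in the lengths or comparing with the rest of the genome was among these 14 alternatives. No paired analysis was possible because no result comes from a test across groups. What depth limits cannot be measured from these lists.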
